A study of Mus musculus with 8 samples.

Results

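The genes described here are 10 mouse genes that the RAS-ERK pathway switches on, most of which act back on it: Dusp4, Dusp5, Dusp6, Spry1, Spry2, Spry4, Spred1, Spred2, Etv4 and Etv5. They were chosen by name, as a probe whose RefSeq accession belongs to one of these symbols. Such a probe was found for 9 of the 10 genes, with 13 of the 41174 probes on the array. Dusp5 was not analysed here. Each of the 9 genes was tested, among 22922 targets in all (14857 with a gene symbol and 8065 without).

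The series measured RNA from mouse embryonic fibroblasts (MEFs), connective tissue cells taken from embryos, on 8 one-colour Agilent arrays in 4 groups of 2. In Keap1 null allografts, 3000000 Keap1–/–-TR MEFs had been injected into nude (nu/nu) mice and the tumour taken at 100 to 150 mm3. In WT allografts, 10000000 WT-TR MEFs had been injected and the tumour taken at the same volumes. Keap1 null dish and WT dish cells were the same kinds of cells grown in culture. All 8 samples were "TR" cells, a term that the labels do not spell out, and 500 ng of RNA was labelled for each. Each genotype is given as 1 kind of cell line, so the effect of the Keap1 deletion and any other difference between the lines cannot be told apart. The number of cells injected also differed between the genotypes, 3000000 against 10000000. In comparisons that use the allografts of both genotypes, it cannot be told apart from genotype either. Nude mice lack mature T cells but keep macrophages, B cells, NK cells and vessels, and each tumour sample holds host cells. Differences between allograft and dish given below for Keap1 null or WT cells are therefore differences between samples, host cells included. The labels do not say whether the 2 arrays of a group came from separate cultures or animals, so each p-value measures the spread between arrays, which may be technical.

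Growth factor receptors activate RAS, which starts the RAF, MEK and ERK kinase cascade. ERK then raises the transcription of its own brakes: the DUSPs remove the activating phosphates from MAP kinases, and the Sprouty and Spred proteins hold back the steps from the receptor to RAF. Etv4 and Etv5 are ETS transcription factors of the PEA3 group, which are induced downstream of FGF receptors and ERK. KEAP1 is the adaptor through which the transcription factor NRF2, the product of Nfe2l2, is marked for degradation.

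RefSeq's promoter table for GRCm38.p6 held 8 windows for 7 of the 10 genes, and the 250 bases before the start are shown for 4 genes whose patterns over the groups, given below, differ. Capitals mark the letters CGGAA on either strand, the core of many ETS binding sites.
Dusp6, chr10:99262981-99263230, plus strand: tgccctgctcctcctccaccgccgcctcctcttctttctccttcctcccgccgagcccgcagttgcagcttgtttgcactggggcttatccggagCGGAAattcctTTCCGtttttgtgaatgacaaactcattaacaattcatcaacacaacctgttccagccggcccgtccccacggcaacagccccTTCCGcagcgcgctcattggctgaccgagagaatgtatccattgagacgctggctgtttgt
Spry1, chr3:37639697-37639946, plus strand: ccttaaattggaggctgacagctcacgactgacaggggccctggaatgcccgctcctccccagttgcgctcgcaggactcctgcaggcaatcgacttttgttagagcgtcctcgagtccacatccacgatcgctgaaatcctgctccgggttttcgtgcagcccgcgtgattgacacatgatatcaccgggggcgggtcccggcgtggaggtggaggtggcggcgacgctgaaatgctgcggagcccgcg
Spry2, chr14:105896820-105897069, minus strand: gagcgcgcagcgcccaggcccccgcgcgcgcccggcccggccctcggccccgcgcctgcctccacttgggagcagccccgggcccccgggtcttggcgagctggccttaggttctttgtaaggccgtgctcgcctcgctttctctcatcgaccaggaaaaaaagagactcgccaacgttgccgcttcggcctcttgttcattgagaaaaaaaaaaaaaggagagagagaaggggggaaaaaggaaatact
Spred1, chr2:117120821-117121070, plus strand: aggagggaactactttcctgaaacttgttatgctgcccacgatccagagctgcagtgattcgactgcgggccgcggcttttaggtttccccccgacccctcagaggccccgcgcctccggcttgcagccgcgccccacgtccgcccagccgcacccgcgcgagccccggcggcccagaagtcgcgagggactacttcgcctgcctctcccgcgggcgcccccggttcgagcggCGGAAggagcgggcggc
The first ETS search used the longer CCGGAAG, which 6.91% of the 32851 mouse windows of this length hold, and found no match in the windows of the 6 measured genes. The shorter CGGAA was searched only after that result and after the sequences had been read. It occurs in 25.2% of all windows, 3 times in that of Dusp6, once in that of Spred1, 2 times in that of Spred2 and in none of Spry1, Spry2 or Etv5. No match was found in the measured genes for the AP-1 motif TGANTCA (6.75% of all windows), the CRE motif TGACGTCA (1.55%) or the antioxidant response element TGACNNNGC (10.2%). CCGGAAG contains CGGAA, and both strands were searched for all 5. A match describes letters only, and a missing match says nothing about binding.

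Levels are given as log2 of the processed intensity minus log2 of the same array's 75th percentile, so that 0 is that percentile and 1 unit is a doubling. Levels of different genes come from different probes and are not set against each other. The share of probes well above background was 60.6 to 74.7% per array, and each probe that stands for 1 of the 9 genes was well above background on all 8 arrays. Replicate 1 of every group lay on 1 slide and replicate 2 on the other. The Keap1 probe, whose place relative to the deletion is not recorded in the sources used here, read 1.00 and 0.92 in Keap1 null allografts, 2.85 and 2.46 in WT allografts, 2.37 and 2.22 in Keap1 null dishes and 3.32 and 2.99 in WT dishes. The Keap1 null signal was reduced but not absent: it fell 3.23-fold short of WT in allografts (limma adjusted p = 0.000722) and 1.82-fold short of WT in dishes (0.0197). The dish call ended when Keap1 null dish replicate 1 or 2 or WT dish replicate 1 was left out (adjusted p 0.0745, 0.111 and 0.0910).

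Host-cell markers differed between the tumours for some cell types. In Keap1 null allografts, relative to WT, limma called 1 higher and 9 lower of 11 macrophage markers. It called 0 higher and 6 lower of 10 T, B and NK cell markers, and 0 and 5 of 12 endothelial markers. Of 5 keratinocyte markers 0 were higher and 2 lower, and 0 of 6 skeletal muscle and 0 of 4 adipocyte markers were called. Over all targets 20.5% were higher and 21.3% lower. The summed scaled intensity of 11 macrophage markers was 24.0 and 24.9 in Keap1 null allografts, 85.5 and 92.8 in WT allografts, 1.87 and 1.81 in Keap1 null dishes and 2.77 and 2.38 in WT dishes. All 11 were well above background in every allograft, and 5 to 7 in each dish sample. The sum of 12 endothelial markers was 22.0 and 24.4 in Keap1 null allografts, 30.7 and 28.5 in WT allografts, 4.49 and 4.33 in Keap1 null dishes and 5.82 and 5.35 in WT dishes. T, B and NK cell markers summed to 0.319 and 0.468 in Keap1 null allografts and 2.04 and 2.16 in WT allografts. The 10 fibroblast markers summed to 931 and 1000.5 in Keap1 null allografts, 818 and 855 in WT allografts, 452 and 446 in Keap1 null dishes and 378 and 345 in WT dishes. The injected cells are themselves fibroblasts, so these 10 are not markers of host cells alone. Of the 10 fibroblast markers, limma called 7 higher and 1 lower for the genotype difference in dishes (median 2.59). In allografts it called 3 higher and 3 lower (median -0.22), and for the interaction 1 higher and 7 lower (median -1.48). Of all targets, 21.1%, 41.8% and 32.9% were called in these comparisons. Skeletal muscle markers summed to 9.06 and 2.17 in Keap1 null and 2.90 and 0.722 in WT allografts, and adipocyte markers summed to 11.7 and 13.8 in Keap1 null and 12.6 and 5.26 in WT allografts. Keratinocyte markers summed to 1.27 and 0.167 in Keap1 null and 0.235 and 0.254 in WT allografts. The part of these cells in any gene's result below was not tested, and in such bulk samples fewer cells of a type and less RNA per cell cannot be told apart.

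Among the phosphatases, Dusp4, which acts on MAP kinases in the nucleus, read 1.65 and 1.45 in Keap1 null allografts, -1.07 and -1.47 in WT allografts, 1.67 and 1.51 in Keap1 null dishes and 1.56 and 1.41 in WT dishes. The WT allografts stood alone: both lay far below the other 6 arrays, which overlapped one another. Dusp6, a cytoplasmic phosphatase with a preference for ERK, read 5.75 and 5.87 in Keap1 null allografts, 5.08 and 5.09 in WT allografts, 5.57 and 5.60 in Keap1 null dishes and 4.43 in both WT dishes. No 2 groups overlapped, and the order from the top was Keap1 null allograft, Keap1 null dish, WT allograft and WT dish. The step between the 2 Keap1 null groups did not pass the test.

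The Sprouty genes had 3 different patterns. Spry1 read 0.13 and 0.01 in Keap1 null allografts, 1.72 and 1.83 in WT allografts, -1.25 and -1.28 in Keap1 null dishes and -1.73 and -1.68 in WT dishes. Both allograft groups lay above both dish groups, with the WT allografts on top. Spry2 read 2.20 and 2.08 in Keap1 null allografts, 0.50 and 0.63 in WT allografts, 1.25 and 0.96 in Keap1 null dishes and 1.65 and 1.42 in WT dishes. Here the WT allografts were the lowest group and the Keap1 null allografts the highest, and the difference between the 2 dish groups did not pass the test. Spry4 read -0.12 and 0.49 in Keap1 null allografts, -2.02 and -0.65 in WT allografts, -1.55 and -0.45 in Keap1 null dishes and -2.66 and -1.07 in WT dishes. The Spry4 arrays of slide 2 exceeded those of slide 1 by 0.61, 1.38, 1.10 and 1.58 in these 4 groups, and its Keap1 null allografts alone did not overlap another group.

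Both Spred genes, which hold back RAS and RAF activation at the membrane, read highest in Keap1 null allografts. For Spred2 the step above the Keap1 null dishes did not pass the test (limma adjusted p = 0.219). Spred1 read -1.51 and -1.43 in Keap1 null allografts, -2.58 and -2.88 in WT allografts, -2.38 in both Keap1 null dishes and -2.56 and -2.65 in WT dishes. The Keap1 null allografts lay above the other 6 arrays. Spred2 read -1.36 and -1.35 in Keap1 null allografts, -2.16 and -2.13 in WT allografts, -1.61 and -1.45 in Keap1 null dishes and -1.81 and -1.60 in WT dishes. Its WT allografts lay below the other 6 arrays, and the 2 dish groups overlapped by a narrow margin.

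The ETS factors moved least in Etv4. Etv4 read 1.35 and 1.52 in Keap1 null allografts, 1.71 and 1.38 in WT allografts, 2.01 and 1.98 in Keap1 null dishes and 1.98 and 1.62 in WT dishes. Etv5 read -2.55 and -2.77 in Keap1 null allografts, -3.12 and -3.55 in WT allografts, -2.76 and -2.93 in Keap1 null dishes and -2.06 and -2.29 in WT dishes. Etv5 was lowest in WT allografts and highest in WT dishes, with the Keap1 null arrays between.

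**Figure D1:**
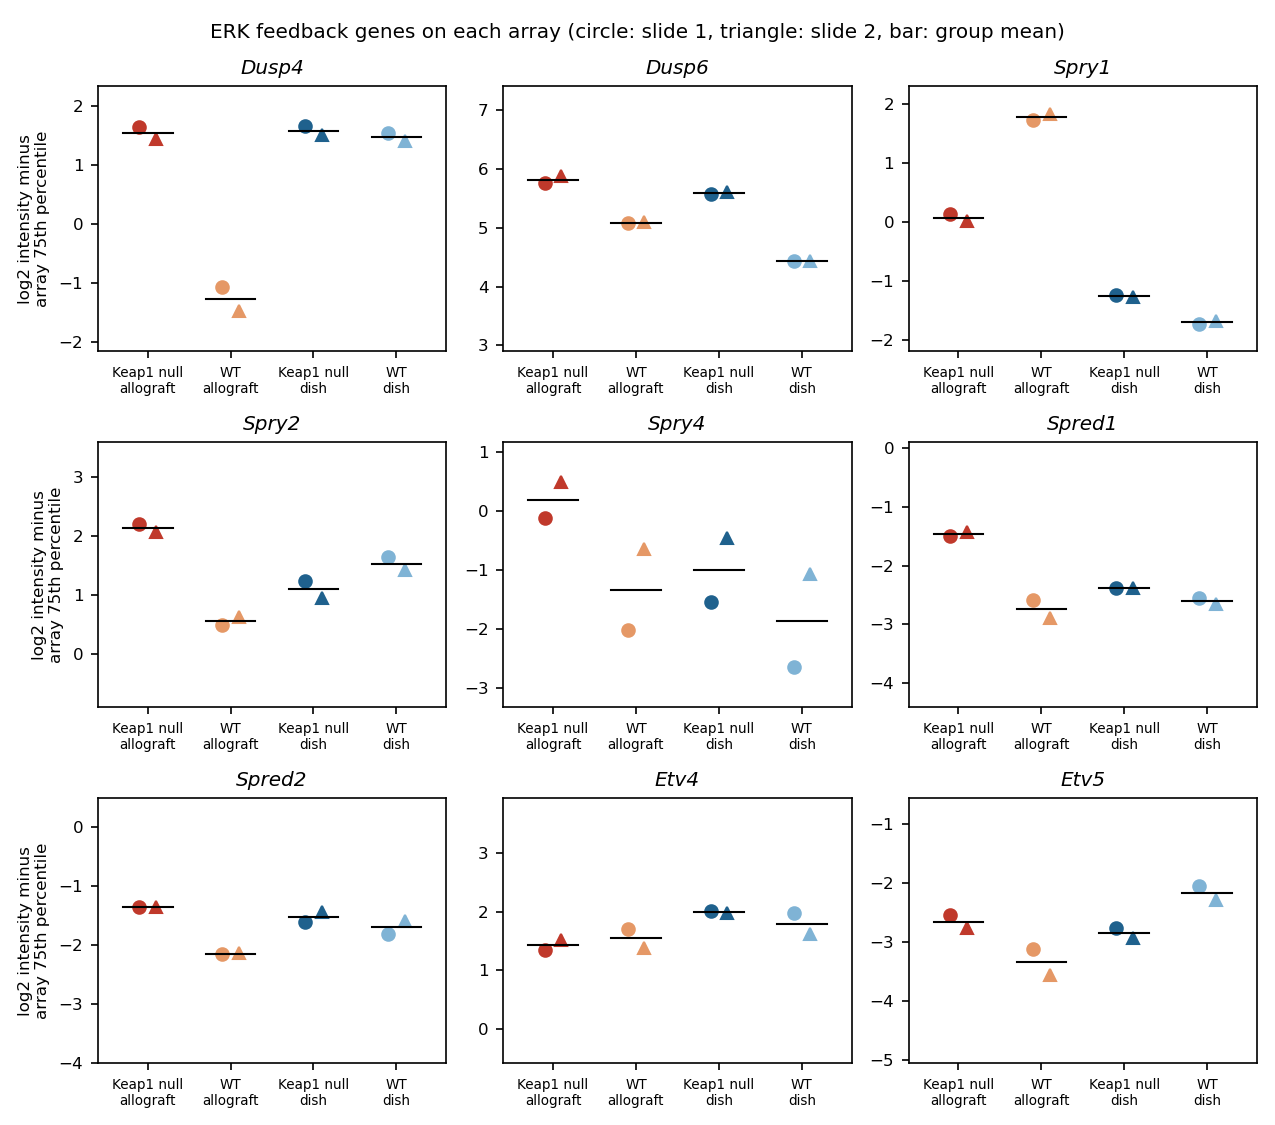
Level of each of the 9 measured genes on each array (y axis, log2 intensity minus the array's 75th percentile; every panel spans the same number of log2 units). Groups run along the x axis, circles are slide 1, triangles slide 2 and bars the group mean of 2 arrays; Dusp4 is low in the WT allografts alone, at -1.07 and -1.47, and Spry4 is higher on slide 2 in every group.

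In Keap1 null allografts 6 of the 9 genes were higher and 1 was lower than in WT allografts. Over all targets, 20.5% were called higher and 21.3% lower in this comparison (41.8% in either direction), and the median difference was 0.79 for the 9 genes and 0.00 for all targets. Dusp4 had the largest difference of the 9, 2.82 ± 0.16 (log2 ± SE, 2 arrays a group), or 7.06-fold, with a limma adjusted p of 9.04e-05. Dusp6 was 1.66-fold higher (0.73 ± 0.09, adjusted p = 0.00123).

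Among the inhibitors, Spry2 was 2.99-fold higher (1.58 ± 0.14, limma adjusted p = 0.000438), Spred1 2.41-fold (1.27 ± 0.12, 0.000568) and Spred2 1.73-fold (0.79 ± 0.11, 0.0025). A dimmer Spry2 probe gave 0.78 and was not called (adjusted p over all probes = 0.213). Spry1 went the other way, with a 3.26-fold lower signal in the Keap1 null tumours (-1.70 ± 0.09, adjusted p = 6.81e-05). Etv5 was 1.60-fold higher (0.68 ± 0.18, adjusted p = 0.0281), a call that ended when Keap1 null allograft replicate 1 or 2 or WT allograft replicate 2 was left out (adjusted p 0.126, 0.0521 and 0.114), and in 4 other settings (0.0624 to 0.217). With unscaled values, Dusp6 and Spred2 were not called either (adjusted p 0.0744 and 0.0814). Spry4 differed by 1.52 with a 95% interval from -0.26 to 3.29 (adjusted p = 0.147) and was called with the slide as a block (adjusted p = 0.00657), its difference being 1.90 on slide 1 and 1.14 on slide 2. Etv4 differed by -0.11 (adjusted p = 0.655), and by -0.36 on slide 1 and 0.14 on slide 2. Beside these results, macrophage markers were lower in the Keap1 null allografts for 9 of 11 genes tested and higher for 1, with a median of -2.13.

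In the dish, 2 of the 9 genes were higher in Keap1 null than in WT cells and none was lower. Over all targets 11.4% were called higher and 9.78% lower (21.1% in either direction). The medians were 0.20 for the 9 genes and -0.05 for all targets. Dusp6 was 2.22-fold higher (1.15 ± 0.09, limma adjusted p = 0.000479), by 1.14 on slide 1 and 1.17 on slide 2. Spry1 was 1.36-fold higher (0.44 ± 0.09, adjusted p = 0.0214), and this call ended when any of the 4 dish arrays was left out, with adjusted p from 0.0703 to 0.129, and in 5 other settings (0.0522 to 0.204).

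The other 7 genes were not called in the dish. Etv5 differed by -0.67 ± 0.18 (limma adjusted p = 0.0504), just short of a call. It was called lower with the slide as a block (adjusted p = 0.00755) and with arrays scaled to their medians (0.0490). The mean of its probes (0.0151) and a filter for probes well above background on all 8 arrays (0.0335) also gave a call. Quantile normalization (0.0973) and unscaled values (0.244) did not. Spry2 differed by -0.43 (95% interval -0.79 to -0.08, adjusted p = 0.0885). Dusp4 differed by 0.11 (adjusted p = 0.742), Spred1 by 0.22 (0.276), Spred2 by 0.17 (0.355) and Etv4 by 0.20 (0.509). Spry4 differed by 0.86 with an interval from -0.91 to 2.64 (adjusted p = 0.495). With 2 arrays a group the fit can miss differences of this size.

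**Figure D2:**
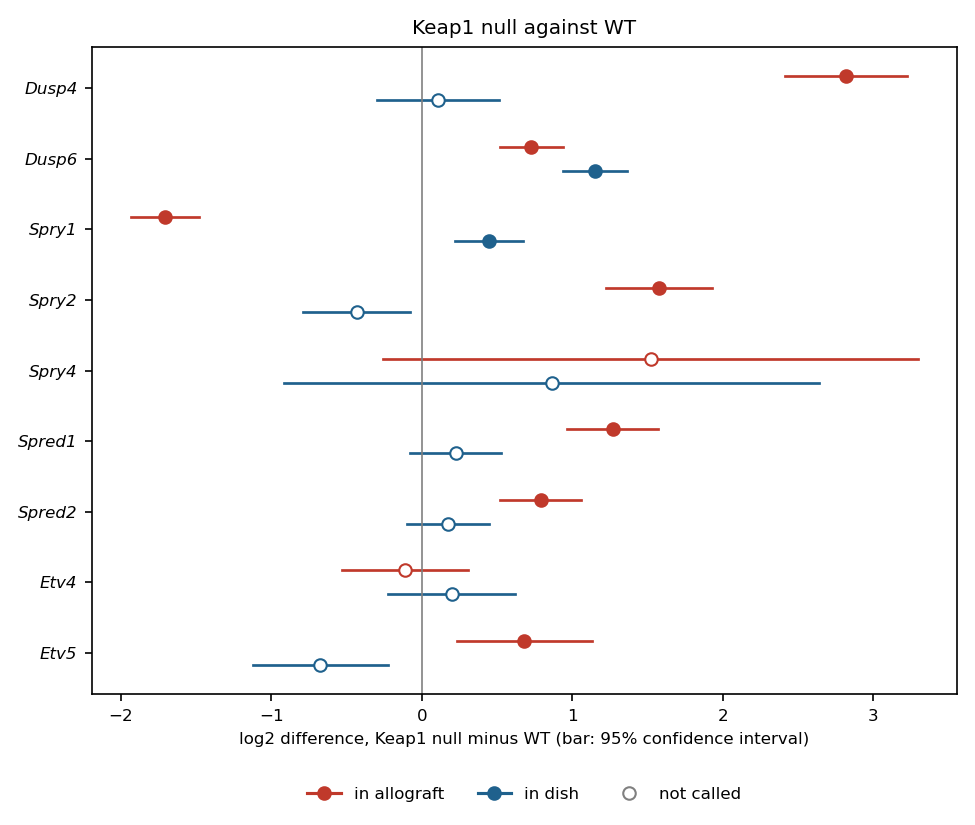
Difference between Keap1 null and WT samples for each gene (x axis, log2; bars are 95% confidence intervals from the fit), in allografts (upper point of each pair) and in dishes (lower point). Filled points are called at an adjusted p below 0.05; Dusp6 lies to the right in both settings, and Spry1 lies at -1.70 in allografts and 0.44 in dishes.

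Among Keap1 null cells, 3 genes were higher in allografts than in dishes and 1 was lower, counts that became 1 and 5 with arrays scaled to their medians and 4 and 0 with quantile normalization. Over all targets, 35.8% were called higher and 29.1% lower (64.9% in either direction), and the medians were 0.23 for the 9 genes and 0.03 for all targets. Array medians and quantile normalization called 79.9% and 65.7% of all targets. Spry1 was 2.51-fold higher in the allografts (1.33 ± 0.09, limma adjusted p = 7.41e-05). Spry2 was 2.06-fold higher (1.04 ± 0.14, adjusted p = 0.00119) and Spred1 1.88-fold (0.91 ± 0.12, 0.00108). Neither of these last 2 calls held when arrays were scaled to their medians (Spry2 0.23, adjusted p = 0.316, and Spred1 0.10, adjusted p = 0.578). On the dimmer Spry2 probe the difference was -0.90 (adjusted p over all probes = 0.122). Etv4 was 1.48-fold lower (-0.56 ± 0.17, adjusted p = 0.0287), and the call ended when any of the 4 Keap1 null arrays was left out (adjusted p 0.0529 to 0.121) and with quantile normalization (0.0795).

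The other 5 genes were not called in Keap1 null cells. Dusp4 differed by -0.04 (limma adjusted p = 0.85), Dusp6 by 0.23 (0.0579), Spred2 by 0.17 (0.219), Etv5 by 0.19 (0.402) and Spry4 by 1.19 (0.198). With the slide as a block, Dusp6 (adjusted p = 0.0375) and Spry4 (adjusted p = 0.00896) were called, which makes 5 genes higher and 1 lower. The block called 71.9% of all targets. Dusp6 was also called with quantile normalization (0.52, adjusted p = 0.00304). With array medians Dusp4 (-0.85, adjusted p = 0.00995), Dusp6 (-0.58, 0.00332), Spred2 (-0.64, 0.00185) and Etv5 (-0.62, 0.046) were called lower.

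Among WT cells, 2 genes were higher in allografts than in dishes and 4 were lower, counts that became 1 and 7 with arrays scaled to their medians, 2 and 5 with quantile normalization and 2 and 2 in the unscaled values. Over all targets, 35.8% were called higher and 32.2% lower (68.1% in either direction), and the medians were -0.25 for the 9 genes and -0.02 for all targets. Array medians, quantile normalization and unscaled values called 83.8%, 66.3% and 51.9% of all targets. Spry1 was 11.1-fold higher (3.48 ± 0.09, limma adjusted p = 2.47e-06), and Dusp6 1.57-fold (0.65 ± 0.09, 0.000882), which turned to -0.34 (adjusted p = 0.0316) when arrays were scaled to their medians. Dusp4 was 6.74-fold lower in the allografts (-2.75 ± 0.16, adjusted p = 3.91e-05).

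Spry2 was 1.96-fold lower in WT allografts (-0.97 ± 0.14, limma adjusted p = 0.00144) and Etv5 2.24-fold lower (-1.17 ± 0.18, 0.00187). Spred2 was 1.36-fold lower (-0.44 ± 0.11, adjusted p = 0.0129), a call that ended without WT dish replicate 2 or WT allograft replicate 1 (adjusted p 0.0638 and 0.0564). In the unscaled values neither Spry2 (-0.59, adjusted p = 0.0602) nor Spred2 (-0.0574, 0.846) was called. Spry4 differed by 0.53 (adjusted p = 0.548), Spred1 by -0.13 (0.38) and Etv4 by -0.25 (0.238). Spred1 was called lower with quantile normalization (-0.82, adjusted p = 0.00356) and with array medians (-1.12, 0.000626), and Etv4 with array medians (-1.24, 0.00134). All 11 macrophage markers were higher in allografts than in dishes for both genotypes, with medians of 5.74 for Keap1 null and 8.47 for WT samples. Of all targets 35.8% were higher in each of the 2 comparisons.

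**Figure D3:**
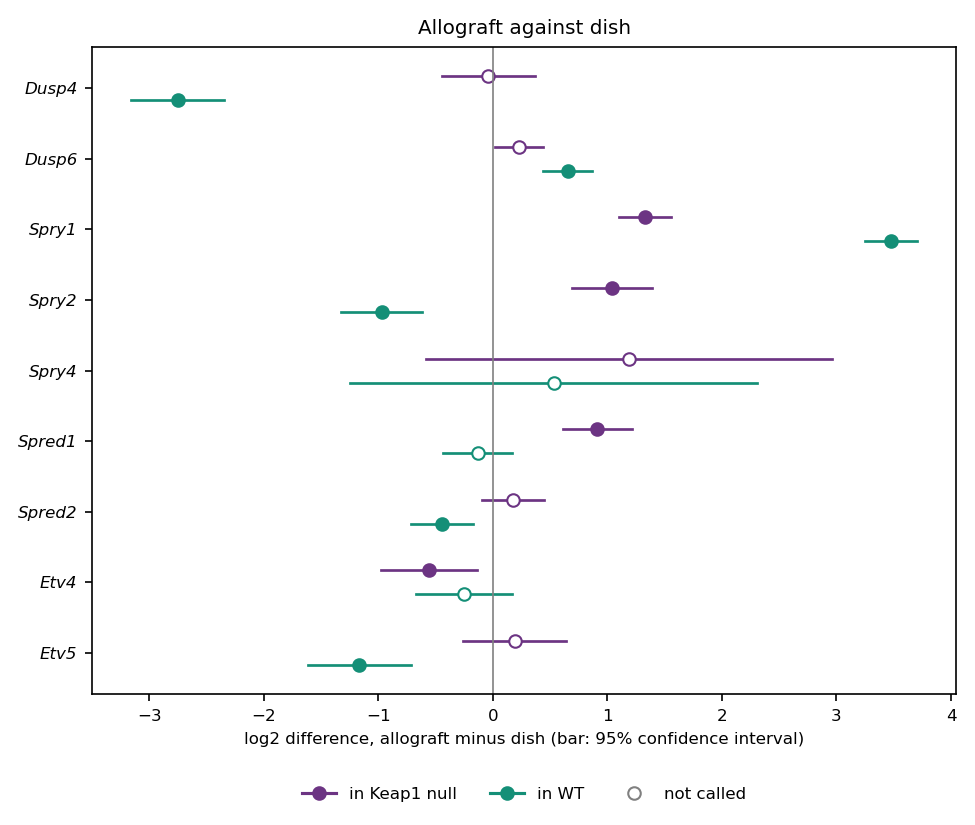
Difference between allograft and dish for each gene (x axis, log2; bars are 95% confidence intervals from the fit), in Keap1 null cells (upper point of each pair) and in WT cells (lower point). Filled points are called at an adjusted p below 0.05; Spry1 lies to the right in both, at 1.33 and 3.48, and Dusp4 lies at -0.04 and -2.75.

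The scaling shifts the growth comparisons. Scaling each array to its median instead of its 75th percentile moved the median of all targets to -0.78 in the Keap1 null growth comparison and -1.01 in the WT one, and to -0.23 in the dish, 0.01 in the allograft and 0.22 in the interaction comparison. The share of calls that were higher then became 28.4% instead of 55.2% for growth in Keap1 null cells, and 26.5% instead of 52.7% for growth in WT cells. It became 36.9% instead of 53.7% for the genotype difference in the dish and 58.8% instead of 48.2% for the interaction. Both scalings move all genes of an array by 1 constant, so a gene's distance from the median of all targets is the same in both by construction. For the difference between WT allografts and WT dishes this distance was 0.67 for Dusp6 and -2.73 for Dusp4, and quantile normalization, which can change it, gave 1.43 and -2.64. With the deposited values unscaled, the share of calls that were higher was 76.4% in the dish, 30.5% in the allograft (49.0% as scaled here), 78.5% for growth in WT cells and 23.3% for the interaction.

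Whether the genotype difference itself depended on growth was tested as an interaction, the allograft difference minus the dish difference. It was called for 7 of the 9 genes, 5 higher and 2 lower, against 15.8% of all targets called higher and 17% lower (32.9% in either direction). The medians were 0.66 for the 9 genes and 0.04 for all targets. Dusp4 had an interaction of 2.71 (limma adjusted p = 0.00061), Spry2 of 2.01 (0.00103), Etv5 of 1.36 (0.0109) and Spred1 of 1.04 (0.0066). Spry1 had one of -2.15 (adjusted p = 0.000213), being higher in Keap1 null cells in the dish and lower in the allograft. Spred2 had one of 0.62 (0.0293) and Dusp6 of -0.42 (0.0426), and leaving out single arrays ended each of these 2 calls, for Spred2 without every array but WT dish replicate 1 and for Dusp6 without every array but Keap1 null allograft replicate 2. Adjusted p then ran from 0.0531 to 0.106 for Spred2 and from 0.0966 to 0.144 for Dusp6. In the unscaled values Etv5 (1.00, adjusted p = 0.0732), Spred1 (0.69, 0.117), Spred2 (0.26, 0.605) and Dusp6 (-0.78, 0.066) were not called. The Dusp6 call also ended with array medians (-0.25, limma adjusted p = 0.307), the normexp background correction (0.0963) and no filter on dim probes (0.0925). Without that filter the Spred2 call ended too (0.0577). Spry4 (0.66, adjusted p = 0.682) and Etv4 (-0.31, 0.388) were not called. The genotype, growth and interaction comparisons share arrays, so their values are not independent of each other.

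For 4 genes there was also a dimmer probe, and the probes did not always move together. For Spry2, the dimmer probe read -2.03 and -1.29 in Keap1 null allografts, -2.83 and -2.04 in WT allografts, -1.17 and -0.34 in Keap1 null dishes and -1.32 and -0.68 in WT dishes. It was higher on slide 2 in every group, and its Keap1 null allografts lay below its Keap1 null dishes, the reverse of the brighter probe. Its growth difference in Keap1 null cells was -0.90 ± 0.44 (limma adjusted p over all probes = 0.122) against 1.04 for the brighter probe, and the mean of both probes gave 0.07 (adjusted p = 0.792). The other Spry2 comparisons on the dimmer probe were 0.78 in allografts (0.213), 0.25 in the dish (0.769) and -1.44 for growth in WT cells (0.0282), with an interaction of 0.53 ± 0.63 (0.573) where the brighter probe gave 2.01. For Spred1 the dimmer probe gave 1.08 between allografts (adjusted p = 0.00112) and 0.79 for growth in Keap1 null cells (0.00216). For Etv5 it gave 0.24 between allografts (0.116), -0.53 in the dish (0.0167) and -0.59 for growth in WT cells (0.0029). The dimmer Spry4 probe was not well above background on both WT dish arrays and on WT allograft replicate 1.

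**Figure D4:**
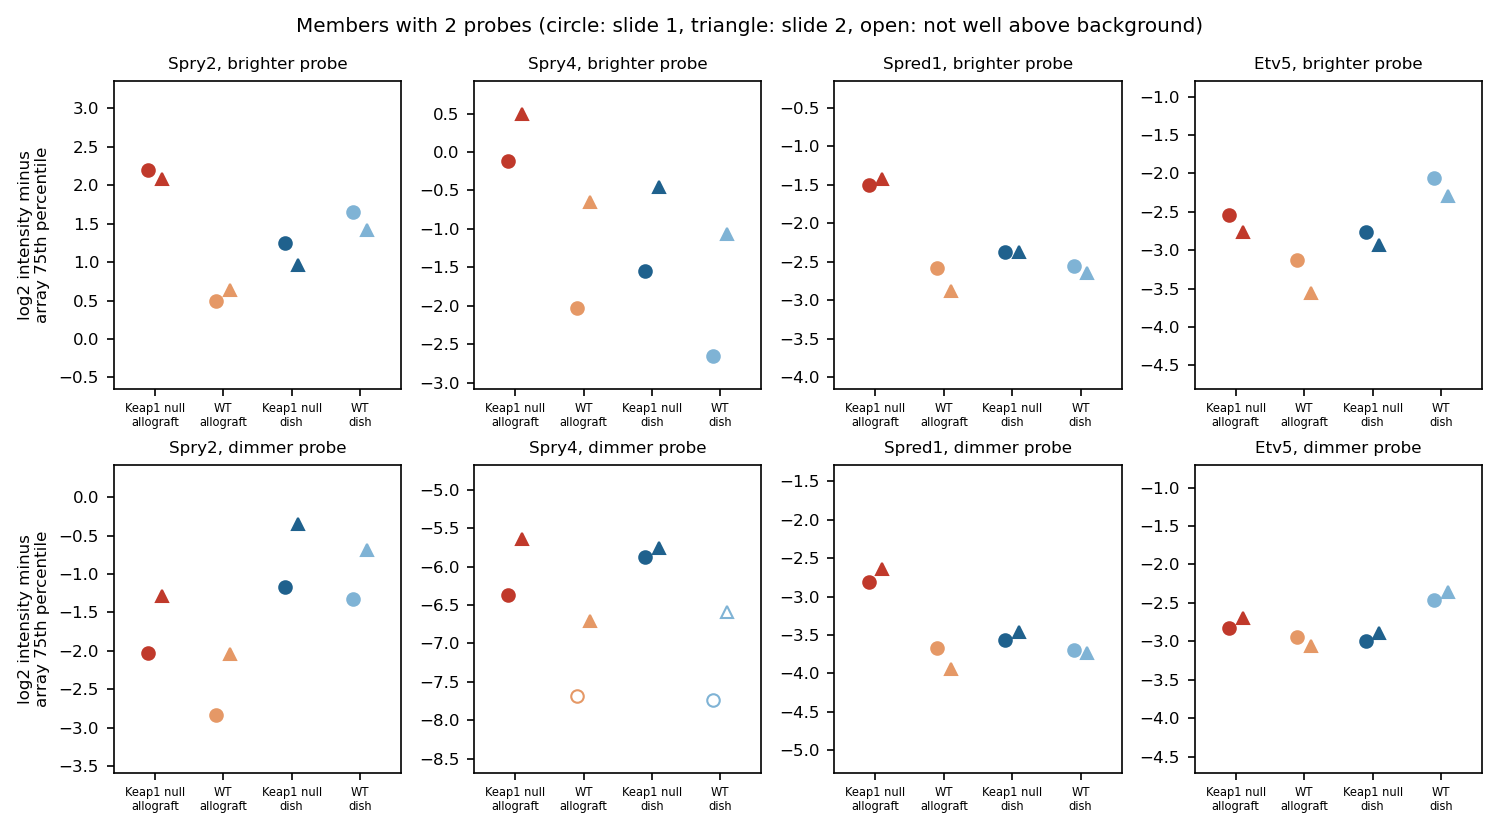
Values of both probes of the 4 genes that have 2 (y axis, log2 intensity minus the array's 75th percentile), with the brighter probe in the top row. Circles are slide 1, triangles slide 2 and open symbols are not well above background; the 2 Spry2 probes order the Keap1 null allografts and dishes in opposite ways.

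Other genes related to the pathway or to the members were taken from 4 lists. Of 10 relatives of the members, 5 were higher and 2 lower in Keap1 null allografts, relative to WT (median 0.55), and 1 was higher and 5 lower in the dish (median -0.69). The shares of all targets were 20.5% higher and 21.3% lower in allografts and 11.4% and 9.78% in the dish. In allografts, Etv1, also a PEA3 group factor, differed by 2.40 (limma adjusted p = 2.3e-05), and Dusp1, an immediate early phosphatase, by 2.28 (0.000374). Dusp9 differed by -2.15 (0.000122) and Dusp8 by -1.86 (0.00012). In the dish Dusp8 differed by -1.53 (0.000561) and Etv1 by 1.48 (0.000232).

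Of 17 tested genes known to be induced by ERK, 8 were higher and 2 lower in Keap1 null allografts, relative to WT (median 0.49), and 2 were higher and 5 lower in the dish (median -0.02). The shares of all targets were 20.5% higher and 21.3% lower in allografts and 11.4% and 9.78% in the dish. In allografts Ier3, a survival factor phosphorylated by ERK, differed by 3.03, Plaur, the urokinase receptor, by 2.60, Phlda2 by 1.83 and Fosb, an AP-1 subunit, by 1.45. Their limma adjusted p were 8.3e-05, 2.3e-05, 0.0013 and 0.000214. In the dish the largest differences of the list were -1.37 for Epha4 and 1.14 for Fos. For growth the list had 7 higher and 4 lower in Keap1 null cells and 4 higher and 11 lower in WT cells, and with arrays scaled to their medians these counts became 4 and 11, and 2 and 14. Of all targets, 64.9% were called in Keap1 null and 68.1% in WT samples, and 79.9% and 83.8% with array medians.

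The core of the pathway, from RAS to the ERK kinases and their RSK targets, had 6 of 29 genes higher and 6 lower in Keap1 null allografts, with a median of 0.08, beside 20.5% and 21.3% of all targets. In the dish 1 was higher and 9 were lower (median -0.18), beside 11.4% and 9.78% of all targets. Quantile normalization made that 1 and 2, with 18.0% of all targets called. The largest allograft differences were -1.21 for Rps6ka1 and 0.84 for Rps6ka2, both RSK kinases, -1.04 for Rras2, a RAS relative, and -0.82 for Gab1, a docking protein (limma adjusted p 0.00106, 0.00247, 0.000491 and 0.00307). In the dish Mras differed by -1.03 and Rasa1, a RAS GTPase activator, by 0.73.

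Of 16 tested FGF ligands, receptors and adaptors, 9 were higher and 1 lower in Keap1 null allografts, relative to WT (median 0.77), and 4 were higher and 2 lower in the dish (median 0.14). The shares of all targets were 20.5% higher and 21.3% lower in allografts and 11.4% and 9.78% in the dish. In allografts Fgf13, an intracellular FGF relative, differed by 3.95, Fgf10, a ligand of FGF receptor 2, by 3.31 and Fgf21, an endocrine FGF, by 2.94 (limma adjusted p 2.8e-05, 1.4e-05 and 6.8e-05). Fgf5 was not well above background in WT allografts, and its signal in the Keap1 null ones was at least 7.24-fold higher (adjusted p = 3.1e-05). In the dish Fgf13 differed by 3.87. Fgf21 was not well above background in Keap1 null dishes and was at least 2.29-fold lower there than in WT dishes.

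For growth, the relatives had 5 higher and 3 lower in Keap1 null cells and 2 higher and 6 lower in WT cells. The core pathway had 3 higher and 8 lower in Keap1 null cells and 3 higher and 18 lower in WT cells, and the FGF list 8 higher and 1 lower in Keap1 null cells and 4 higher and 7 lower in WT cells. With arrays scaled to their medians these became 3 and 7, and 1 and 8, for the relatives, 0 and 27 in both genotypes for the core pathway, and 5 and 7, and 1 and 12, for the FGF list. Of all targets, 35.8% were higher and 29.1% lower in Keap1 null samples and 35.8% and 32.2% in WT samples. Array medians called 79.9% and 83.8% of all targets in either direction. The interaction was higher for 7 and lower for 1 of the relatives, 8 and 1 of the ERK-induced genes, 8 and 3 of the core pathway and 6 and 1 of the FGF list, with medians of 0.86, 0.64, 0.21 and 0.44 against 0.04 for all targets. It was called higher for 15.8% and lower for 17% of all targets.

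**Figure D5:**
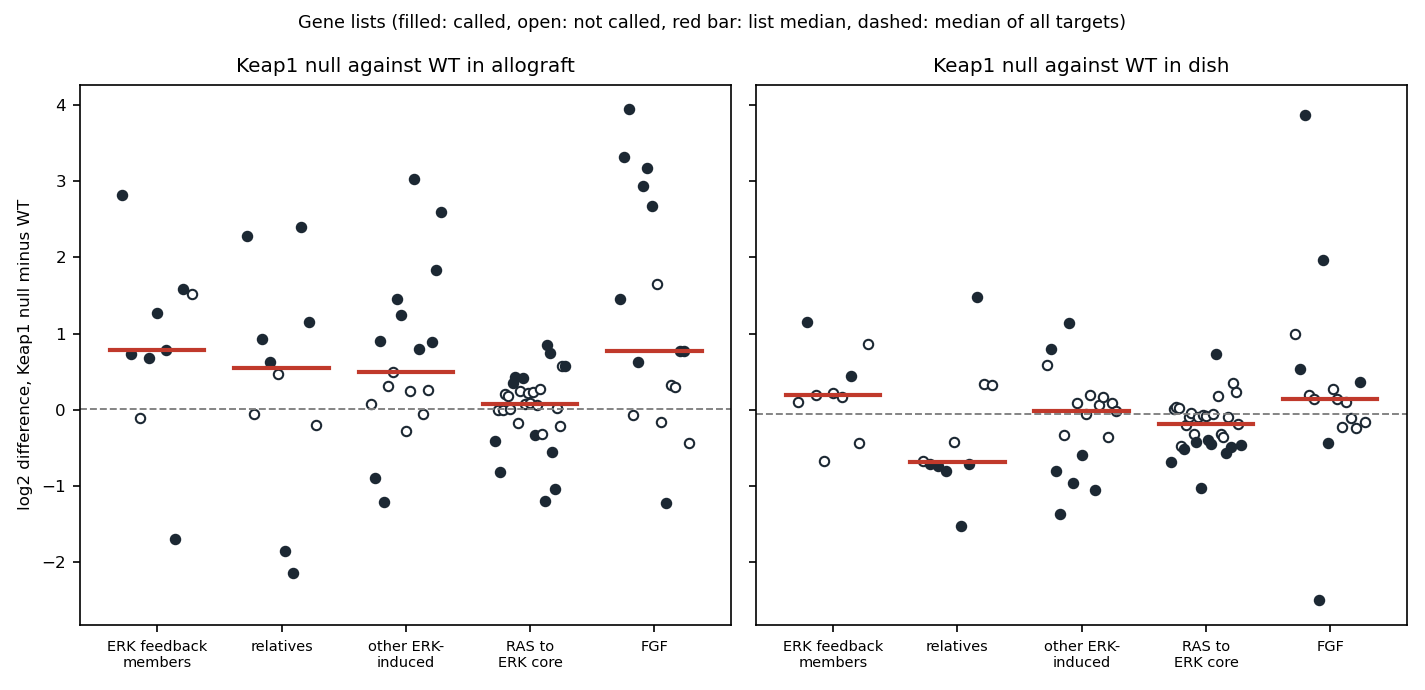
Difference between Keap1 null and WT samples (y axis, log2) for the members and 4 lists of related genes (x axis), in allografts at the left and in dishes at the right. Filled points are called, red bars are list medians and the dashed line is the median of all targets; the member median is 0.79 in allografts and 0.20 in dishes.

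Over the 8 arrays, the widest ranges were those of Spry1, Spry4 and Dusp4, 3.56, 3.15 and 3.14 log2 units, at the 84.0, 80.0 and 79.9 percentiles of all targets, whose median range was 1.44. Spred2 (0.80) and Etv4 (0.66) were among the steadier targets, at the 17.4 and 10.4 percentiles. Likeness was measured as the root mean square difference of centred log2 values over the 8 arrays, with a smaller value for closer values. The nearest named genes to Dusp6 were Adgra2 (0.108), Amigo2 (0.111), Shisa9 (0.115), Apon (0.122) and Capn6 (0.129), and its nearest member was Spred1 (0.389), at rank 480 of all named genes. Spry4's nearest were Vwa7 (0.377), Gnao1 (0.420), Slc25a41 (0.424), Golim4 (0.430) and BC051665 (0.439). The closest pair of members was Spred1 and Spred2 (0.335), followed by Spry2 and Spred1 (0.345), whereas the nearest member to Spry1 was Dusp6 at 1.33. Among all named genes, Spred2 stood at rank 508 from Spred1, and Spred1 at rank 2614 from Spred2. Spred1 stood at rank 237 from Spry2 and Dusp6 at rank 4139 from Spry1. Spred2 varied little over the arrays, so its small distance need not mean a shared pattern.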

How the data were processed

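RNA from 8 samples was hybridised to one-colour Agilent arrays, and the deposited scanner files hold 1 processed intensity per spot, which the authors obtained with Agilent's Feature Extraction software (version 10.7.3.1), per the file headers, where build mm9 is named. The deposited value table holds the same intensities, within 0.5% on every array, without scaling between arrays. Control spots and outlier spots were left out, log2 of each deposited intensity was taken minus log2 of the array's 75th percentile over spots, and spots of a probe were averaged. Probes were named by RefSeq accession (26690 of 41174 probes, 18217 symbols). Tested were the 30358 probes that the scanner software put well above background in both members of any 1 group, and the brightest tested probe stood for a gene. Group means of all 4 groups were fitted with limma 3.58.1 in R 4.3.3 (4 residual and 1.83 prior degrees of freedom), with Benjamini-Hochberg adjustment over 22922 targets and calls at an adjusted p below 0.05. The number of arrays limits the precision, and an exact permutation of 2 against 2 cannot go below p = 0.33.

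The members and lists were chosen with earlier results of these data known. Named genes are the 10 members, Keap1, Nfe2l2 and, from each list and comparison, up to 4 called genes with the largest change, of which the report gives up to 4 for the allograft comparison and up to 2 for the others. The closing section gives the interaction of each gene so named that was called for it. Replicate numbers coincide with slides. Over the 6 pairs of groups, the deviations of replicate 1 from its group mean correlated at 0.25 to 0.43, so the slide pairs the samples, and the slide block and replicate block are the same fit. Alternatives were other scalings, the background correction, the filter on dim probes, the mean of probes, the groups in the fit, the block, and each array left out. Normexp used median signals, as the files hold no mean signal, and this, the percentile over probes and the motif CGGAA were added after seeing the data. The percentile over spots itself replaced a first run over probes after its results had been seen, and member counts were equal in both. The fit was tested on simulated data, with 200 of 22900 targets changed in the dish comparison. It called 0% of changes of 0.5 log2 units, 26.5% of changes of 1 and 83.5% of changes of 2. False calls numbered 0, 2 and 20. Far fewer targets were changed there than were called in the data, so these shares need not hold for the data. Dusp5 was not analysed here.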

Additional observations from a re-analysis of the deposited data

Results flagged for a closer look

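The genotype difference in the allograft and that in the dish differed for the following genes by the interaction term in limma, given as allograft difference minus dish difference on the log2 scale. With groups of 2 arrays no single array could be tested as standing apart. Among the members the term was 2.71 for Dusp4, 2.01 for Spry2, 1.36 for Etv5, 1.04 for Spred1, 0.62 for Spred2, -0.42 for Dusp6 and -2.15 for Spry1. On the dimmer Spry2 probe the term was 0.53 and was not called (adjusted p over all probes = 0.573). Keap1 itself had -0.83 (adjusted p = 0.0475), which ended without each array but WT dish replicate 1 and WT allograft replicate 2 (adjusted p 0.0931 to 0.139), and with array medians (0.173) and no filter (0.0777), and Nfe2l2 had 0.54 (adjusted p = 0.0356), which ended without each array but WT dish replicate 1 (adjusted p 0.0616 to 0.129) and with quantile normalization (0.26, 0.250), unscaled values (0.18, 0.741), normexp (0.0763) and no filter (0.0718).

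Among relatives of the members, the term was 2.96 for Dusp1, 1.66 for Dusp16, 1.43 for Dusp2, 0.92 for Etv1, 0.66 for Dusp10 and -1.43 for Dusp9. Among genes induced by ERK it was 2.84 for Ier3, 2.62 for Plaur, 2.41 for Fosb, 1.86 for Maff, 1.74 for Phlda2 and -1.69 for Egr2. In the core pathway it was 1.32 for Rps6ka3, 1.2 for Rps6ka2, 1.11 for Mras (adjusted p = 0.0492), 1.04 for Sos2, -0.55 for Rras2, -0.86 for Gab1 and -0.89 for Rps6ka1. Among FGF genes it was 5.44 for Fgf21, 3.1 for Fgf7, 2.78 for Fgf10 and 1.21 for Fgf5. Fgf21 was not well above background in Keap1 null dishes, and Fgf5 in either WT group, so their fitted terms are no bound.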

How the results depend on the processing

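With the replicate block, which is also the slide block, the members called were 3 in the dish, 8 in the allograft, 6 for growth in each genotype and 7 for the interaction. The block also called more of all targets: 28.4% in the dish, 49.8% in the allograft and 40.9% for the interaction. For growth it called 74.5% of all targets in WT and 71.9% in Keap1 null samples. The member calls it changed are given beside the results. Of the members' results with 1 array left out, 323 kept direction and side of the threshold, 27 lost and 2 gained a call and 8 changed sign. Under other settings 399 kept both, 25 lost and 13 gained a call and 13 changed sign. Targets called in the dish were 4843, against 2620 in the unscaled deposited values, 2856 with normexp and 2371 to 4451 with 1 array left out. Members called in the dish were 1 in the unscaled values, with normexp, without the filter and with only the dish groups fitted, and 1 to 3 with 1 array left out. In the unscaled values 4 members were called in the allograft and 3 for the interaction, beside 32.3% and 24.2% of all targets. The dish share of all targets called was 11.4% in the unscaled values and 12.5% with normexp. It was 11.2% without the filter and 15.1% with only the dish groups fitted. Scaled to array medians, the sign turned for Dusp4 in the dish (-0.0656), for Dusp6 (-0.34) and Spry4 (-0.46) for growth in WT cells, and for Dusp6 (-0.58), Spred2 (-0.64) and Etv5 (-0.62) for growth in Keap1 null cells. With quantile normalization it turned for Etv4 in WT growth (0.0643) and for Dusp4 (0.11), Spred2 (-0.0624) and Etv5 (-0.39) in Keap1 null growth. In the unscaled values it turned for Spred1 (0.25) and Etv4 (0.13) in WT growth, and with normexp for Dusp4 in Keap1 null growth (0.000817). With 1 array left out, the sign was not stable for Etv4 in the allograft (-0.275 to 0.0537), Spry4 (-0.263 to 1.32) and Spred1 (-0.283 to 0.0188) in WT growth, Dusp4 in Keap1 null growth (-0.137 to 0.0577) and the Spry4 interaction (-0.134 to 1.45). Nfe2l2, not called in the dish (0.07) or for WT growth (-0.01), ranged over -0.00764 to 0.139 and -0.0841 to 0.0623 there with 1 array left out. It turned to -0.106 in the dish and, where called, to -0.284 in Keap1 null growth with array medians. In WT growth it turned to 0.497 with quantile normalization, 0.376 unscaled, 0.0208 with normexp and 0.0329 with the percentile over probes. The cause of these changes was not tested, beyond the shift of all targets given above for array medians.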

Other observations

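Nfe2l2, which encodes NRF2, was 1.52-fold higher in Keap1 null than in WT allografts (0.60 ± 0.10, limma adjusted p = 0.00529) and differed by 0.07 in the dish (adjusted p = 0.743). In the unscaled values its allograft difference was 0.37 and was not called (adjusted p = 0.239). Among growth differences of the related lists, Etv1 differed between allograft and dish by 2.90 in Keap1 null and 1.98 in WT cells, Dusp9 by -2.92 in Keap1 null and -1.49 in WT cells and Dusp10 by -1.38 in Keap1 null and -2.03 in WT cells. Fos differed by 2.98 in Keap1 null and 3.63 in WT cells, and Egr2 by 2.57 in Keap1 null and 4.25 in WT cells. Fgf21 was at least 12.2-fold higher in Keap1 null allografts than in Keap1 null dishes, where it was not well above background. Fgf2 differed by 2.44 in Keap1 null and 1.95 in WT cells, and Rras2 by -2.23 in Keap1 null and -1.68 in WT cells.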
